A study of Rattus norvegicus with 24 samples.

Results

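A module of 35 rat genes for fatty acid oxidation, lipid uptake and ketone body metabolism was followed in the left kidneys of 24 male PKD/Mhm (Cy/+) rats. The genes were chosen by name for their role, were looked up by their Entrez identifiers, and make up 35 of the 17334 genes in the files. The study describes the rats as heterozygous for the Cy mutation, a missense change in Anks6 that leads to cystic kidneys. They were told from non-cystic rats by abdominal palpation, and no group without the mutation was included. All animals were 8 months old at the end of the study, and whole-kidney total RNA was sequenced.

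There were 6 animals in each of 4 groups. The Ctrl animals were untreated. Animals of the 2 cell groups were given 2000000 human skin-derived stromal cells, sorted for the surface protein ABCB5, each month for 6 months, into the peritoneum (i.p. ABCB5+) or into a vein (i.v. ABCB5+). The CoCM group was given the supernatant of such cells cultured together with stimulated THP-1 macrophages, a human monocyte line, on the same schedule. The sources differ on whether the supernatant was given into a vein or into the peritoneum. No group was given a vehicle or a medium that had held no cells. The animal numbers of the Ctrl group run from 1 to 24 and those of the treated groups from 26 to 43, so treatment and anything that goes with the numbering cannot be told apart.

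Fatty acids enter the cell through carriers and binding proteins, are joined to coenzyme A, cross into mitochondria as carnitine esters, and are shortened in repeated cycles of dehydrogenation, hydration, a second dehydrogenation and thiolysis. Electrons pass to the respiratory chain through electron transfer flavoprotein, and the acetyl-CoA formed can be burned or turned into ketone bodies. The nuclear receptor PPARα (Ppara) and its coactivator PGC-1α (Ppargc1a) switch on many of these genes. In the kidney the proximal tubule relies heavily on fatty acids, and the kidney takes up and burns ketone bodies made in the liver.

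The start regions of 4 members and of a pair of members are shown because their genes carry the patterns described below. The sequences are the 250 bases before the first base of the gene in RefSeq, assembly GRCr8, written 5′ to 3′ on the gene's strand, with the letters found by the search in capitals. Slc27a2 (Entrez 65192, chr3:134257851-134258100, plus strand) carries the nuclear receptor core AGGTCA on the opposite strand. Acadm (Entrez 24158, chr2:245542865-245543114, minus strand) and Ppargc1a (Entrez 83516, chr14:63634058-63634307, plus strand) carry the full cyclic AMP response element TGACGTCA. Angptl4 (Entrez 362850, chr7:15258682-15258931, minus strand) carries the TATA box letters TATAAA, which overlap a match on the other strand.
Slc27a2: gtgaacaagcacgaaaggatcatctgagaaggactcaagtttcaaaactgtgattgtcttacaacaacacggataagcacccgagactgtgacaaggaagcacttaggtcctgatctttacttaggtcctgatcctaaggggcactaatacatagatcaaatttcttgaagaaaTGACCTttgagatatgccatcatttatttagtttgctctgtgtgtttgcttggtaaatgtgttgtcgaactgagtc
Acadm: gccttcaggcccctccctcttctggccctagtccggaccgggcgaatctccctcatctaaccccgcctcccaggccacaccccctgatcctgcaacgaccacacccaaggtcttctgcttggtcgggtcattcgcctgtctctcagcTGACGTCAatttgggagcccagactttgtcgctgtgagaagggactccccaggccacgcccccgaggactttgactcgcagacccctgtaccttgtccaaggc
Ppargc1a: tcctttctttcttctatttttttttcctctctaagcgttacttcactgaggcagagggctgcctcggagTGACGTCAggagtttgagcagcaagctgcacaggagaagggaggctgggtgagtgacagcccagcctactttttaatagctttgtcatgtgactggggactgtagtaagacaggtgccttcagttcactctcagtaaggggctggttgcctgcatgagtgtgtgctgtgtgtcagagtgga
Angptl4: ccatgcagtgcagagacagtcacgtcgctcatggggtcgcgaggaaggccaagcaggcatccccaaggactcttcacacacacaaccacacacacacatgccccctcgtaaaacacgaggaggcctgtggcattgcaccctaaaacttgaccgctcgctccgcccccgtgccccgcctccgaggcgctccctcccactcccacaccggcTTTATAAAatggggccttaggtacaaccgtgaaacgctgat

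The match lies 76 bases before the start in Slc27a2, 103 in Acadm, 181 in Ppargc1a, and 39 on the gene's own strand in Angptl4. Hadha and Hadhb encode the α and β subunits of the mitochondrial trifunctional protein and lie head to head, with their starts 301 bases apart and in opposite directions. They were singled out after their values had been seen. The 200 bases that belong to the windows of both genes (chr6:31907551-31907750, written on the plus strand) hold 1 GC box, here in capitals.
Hadha and Hadhb, shared: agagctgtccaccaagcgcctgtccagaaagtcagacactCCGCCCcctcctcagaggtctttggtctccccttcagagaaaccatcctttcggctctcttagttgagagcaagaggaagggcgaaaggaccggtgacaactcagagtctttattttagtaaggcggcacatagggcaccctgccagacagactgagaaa

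A window of this kind was found for 30 of the 35 members, and none for Acaa2, Fabp4, Cpt1b, Decr1 and Acadl. The DR1 element, a direct repeat of AGGTCA with any 1 base between the copies, which PPARα with its partner RXR can bind, was in the window of 0 members and in 0.0508% of 33469 rat windows, counting both strands. The single core AGGTCA was in the windows of 4 members (Acadvl, Echs1, Eci1 and Slc27a2) and in 14.1% of all windows. TGACGTCA was found in 2 members and in 1.59% of all windows. The GC box GGGCGG, a site for Sp1-type factors, was found in 18 members and in 30.5% of all windows. TATAAA was found in 4 members (Acsl5, Angptl4, Cd36 and Echs1) and in 12.9% of all windows. A match is only a stretch of letters, and the genes have other regulatory sequence outside these windows.

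Libraries held 9304630 to 14125457 estimated counts, and all 35 members passed the low-count filter that left 12778 genes. Within each gene, groups are compared below in CPM (counts relative to a library total scaled by the TMM method). Levels of different genes are compared only in TPM, the deposited abundances that take transcript length into account. Single libraries are also set beside the others in TPM where so marked. TPM is not scaled by the TMM method, so a library can rank differently in TPM and in CPM. Markers of kidney were present throughout: the summed level of 10 proximal tubule genes was 1208 to 14648 TPM. On a principal component that took up 56.3% of the variance of all genes, 4 treated libraries (CoCM animal 39, i.p. ABCB5+ animal 38, and i.v. ABCB5+ animals 36 and 37) scored 80.8 to 97.4 and the other 20 scored −53.0 to 11.5. The members' directions and medians in each comparison below are therefore given with and without them.

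The most abundant member was Fabp3, an intracellular fatty acid carrier, at a median of 496 TPM over the 24 kidneys. It was followed by Oxct1, the enzyme that commits ketone bodies to breakdown, at 315 TPM. Both subunits of electron transfer flavoprotein were high, Etfb at 282 and Etfa at 233 TPM, together with the thiolase Acat1 at 255 and the mitochondrial carrier Ucp2 at 229 TPM. The ranges over animals of these neighbours in the order overlapped, and whether the order held within each library was not tested. Of the acyl-CoA dehydrogenases, which open each round of oxidation, Acadm (medium chain) stood at 193, Acadl (long chain) at 187, Acadvl (very long chain) at 102 and Acads (short chain) at 64.5 TPM. Hadha and Hadhb, whose products form 1 complex, were at 178 and 187 TPM.

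Genes for entry of fatty acids into mitochondria were lower. Cpt1a, the liver-type form of the carnitine palmitoyltransferase that controls this entry, had a median of 77.3 TPM, and Cpt2, which rebuilds the coenzyme A ester inside, 28.7 TPM. Cpt1b, the muscle-type form, had 6.46 TPM. In all, 16 of the 35 members had a median above 100 TPM and 2 had a median below 10 TPM. The lowest was Ppara itself at 2.26 TPM, while Ppargc1a had 15.2 TPM.

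**Figure D1:**
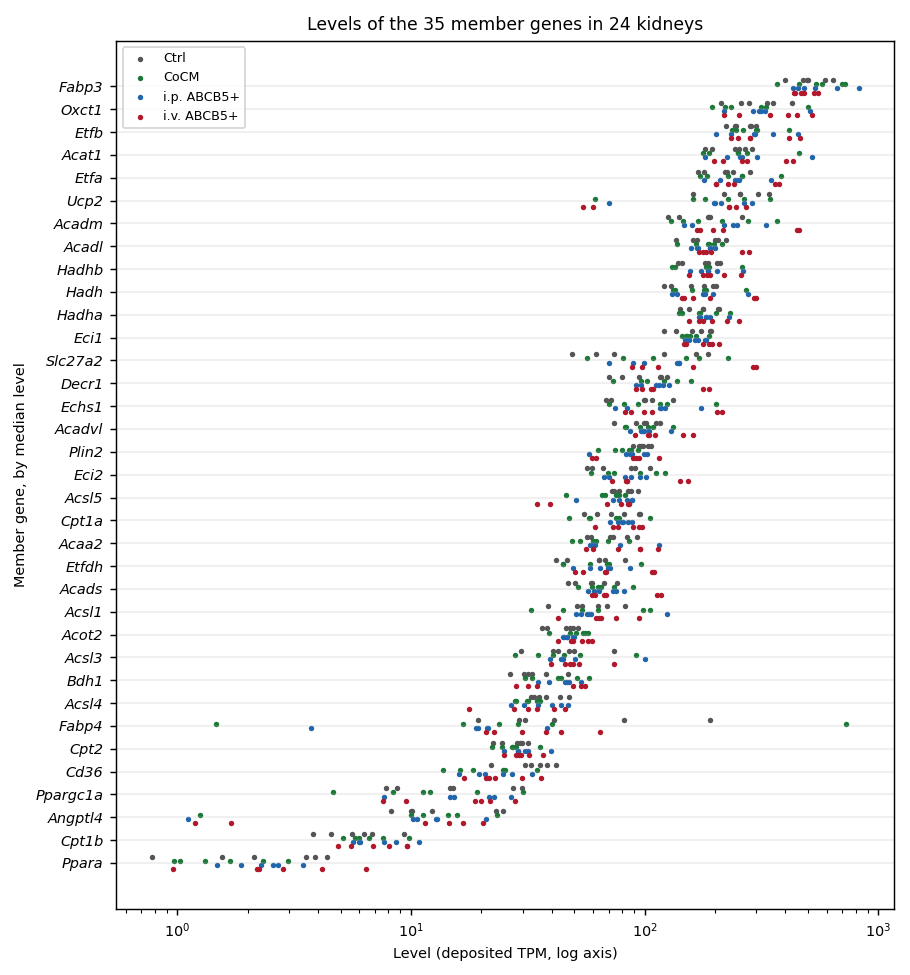
Deposited TPM of each member (log axis) in each kidney, with a dot per animal coloured by group, ordered from the highest median (Fabp3, 496 TPM) to the lowest (Ppara, 2.26 TPM). Fabp4 spans 1.47 to 723 TPM, while for most members the 4 groups lie on top of each other.

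Members differed greatly in how much they varied between animals. The SD of log2 CPM over the 24 kidneys was 1.59 for Fabp4, the fatty acid binding protein of fat cells, 1.25 for Angptl4, a secreted inhibitor of lipoprotein lipase, and 0.79 for Slc27a2, a fatty acid transporter and very long chain acyl-CoA synthetase. Ppara (0.72), Ucp2 (0.70) and Ppargc1a (0.70) followed. The smallest SD was that of Plin2, which coats lipid droplets, at 0.17. The median SD was 0.44 over the members and 0.30 over all genes tested.

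The 4 libraries ranked at the edge of their groups for most members. CoCM animal 39 had the highest value of its group in 28 of 35 members, against 35% of all genes tested, and the lowest in 6, against 32.5%. I.p. ABCB5+ animal 38 was the highest of its group in 26 members, against 34.7% of all genes, and the lowest in 7, against 29.3%. In the i.v. ABCB5+ group, animals 36 and 37 both lay above the other 4 in 27 members, against 27.5% of all genes, and both below them in 5, against 28.9%. These shares describe libraries that were singled out on all genes, the members included, and carry no test.

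**Figure D2:**
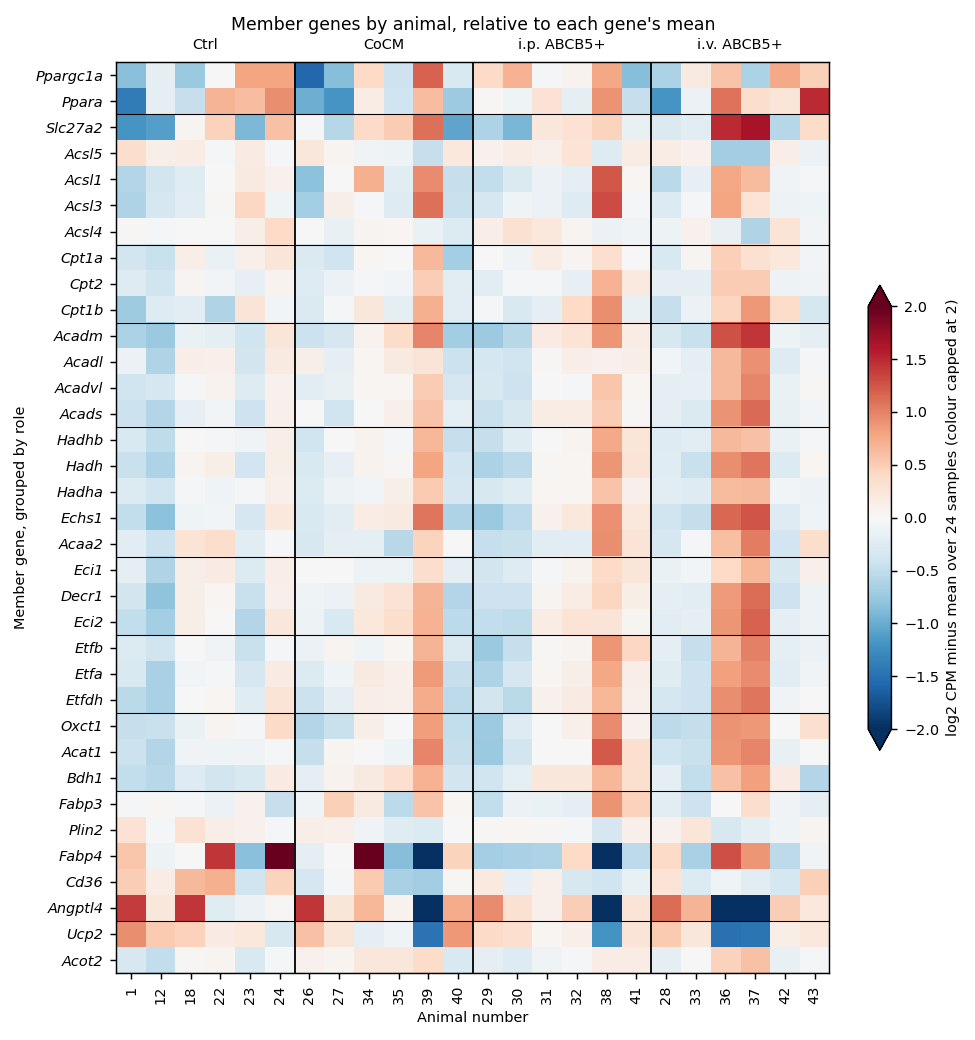
Colour shows log2 CPM of each member (rows, grouped by role) in each animal (columns, grouped by treatment) minus the gene's mean over 24 samples, capped at 2 in either direction. CoCM animal 39, i.p. ABCB5+ animal 38 and i.v. ABCB5+ animals 36 and 37 are red for most oxidation enzymes and blue for Angptl4 and Ucp2.

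In these 4 libraries Acadm stood at 368, 329, 455 and 448 TPM (in the order CoCM 39, i.p. 38, i.v. 36, i.v. 37), and in the other 20 it ranged from 126 to 276 TPM. Echs1, the short-chain enoyl-CoA hydratase, stood at 202, 174, 215 and 204 TPM against 68.6 to 132 TPM. Acat1 stood at 455, 518, 430 and 404 TPM against 177 to 303 TPM. Echs1 and Acat1 were singled out after their values had been seen. For each of these enzymes the 4 libraries lay above all others.

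The same held for Oxct1, at 499, 510, 519 and 450 TPM against 195 to 427 TPM. Bdh1, which interconverts the ketone bodies acetoacetate and β-hydroxybutyrate, stood at 57.5, 53.6, 53.4 and 55.6 TPM against 26.5 to 51.4 TPM. The transporter Slc27a2 was above the others in 3 of them, at 227, 298 and 292 TPM, while i.p. ABCB5+ animal 38 had 137 TPM, within the range of the others (48.6 to 186 TPM).

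A smaller set of members stood in the opposite direction. Angptl4 stood at 1.25, 1.11, 1.70 and 1.19 TPM in the 4 libraries and at 8.17 to 24.8 TPM in the others. Ucp2 stood at 61.0, 70.6, 60.2 and 54.4 TPM against 160 to 344 TPM, and Plin2 at 63.4, 58.0, 61.9 and 59.5 TPM against 74.2 to 115 TPM. For Acsl5, an acyl-CoA synthetase of mitochondria and the endoplasmic reticulum, the values were 46.0, 50.7, 39.1 and 34.5 TPM against 65.7 to 93.3 TPM. All 4 of these genes lay below every other library in each of the 4. Of the regulators among the members, Ppara (2.97, 3.44, 4.14 and 2.20 TPM against 0.775 to 6.43) lay within the range of the other animals in each. Ppargc1a (30.1, 21.5, 19.8 and 7.58 TPM against 4.65 to 29.9) did so in all but CoCM animal 39. In CPM both were the highest of their group in CoCM animal 39 and i.p. ABCB5+ animal 38.

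Summed markers of some cell types moved with these libraries. The summed proximal tubule markers stood at 10341, 7730, 13163 and 14648 TPM, against 1208 to 6557 TPM in the other 20. The list did not move as a whole. Slc34a1, Slc22a6, Slc13a3 and Miox lay above the others in all of these libraries. Lrp2, Slc22a8 and Slc7a13 did so in only some of them, and Slc5a2, Slc5a12 and Cubn lay within the range of the others in all. The 9 markers of injured tubule, led by Spp1, summed to 657, 734, 1055 and 937 TPM against 7790 to 16032 TPM, and the 6 macrophage markers to 49.7, 95.8, 109 and 129 TPM against 285 to 762 TPM. The 5 fibroblast markers summed to 236, 234, 309 and 284 TPM against 400 to 1531 TPM. Of the markers in these sums, Acta2 lay within the range of the others in all but i.v. ABCB5+ animal 37. Sox9 did so in i.v. ABCB5+ animal 36 and Krt18 in i.p. ABCB5+ animal 38. In whole tissue, fewer cells of a type and less RNA per cell cannot be told apart, and the part of these cell types in the members' levels was not tested.

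Slc27a2 moved with the summed proximal tubule markers among the remaining animals too. It stood at 113, 120 and 137 CPM in the Ctrl animals whose proximal tubule markers (a list without Slc27a2) summed to 1208, 1613 and 1880 TPM. The values were 268, 353 and 385 CPM in those with sums of 3855, 5388 and 6557 TPM. The animals stood in the same order for Slc27a2 and for the marker sum in 3 of the 4 groups, and in the i.p. ABCB5+ group a single neighbouring pair was exchanged.

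**Figure D3:**
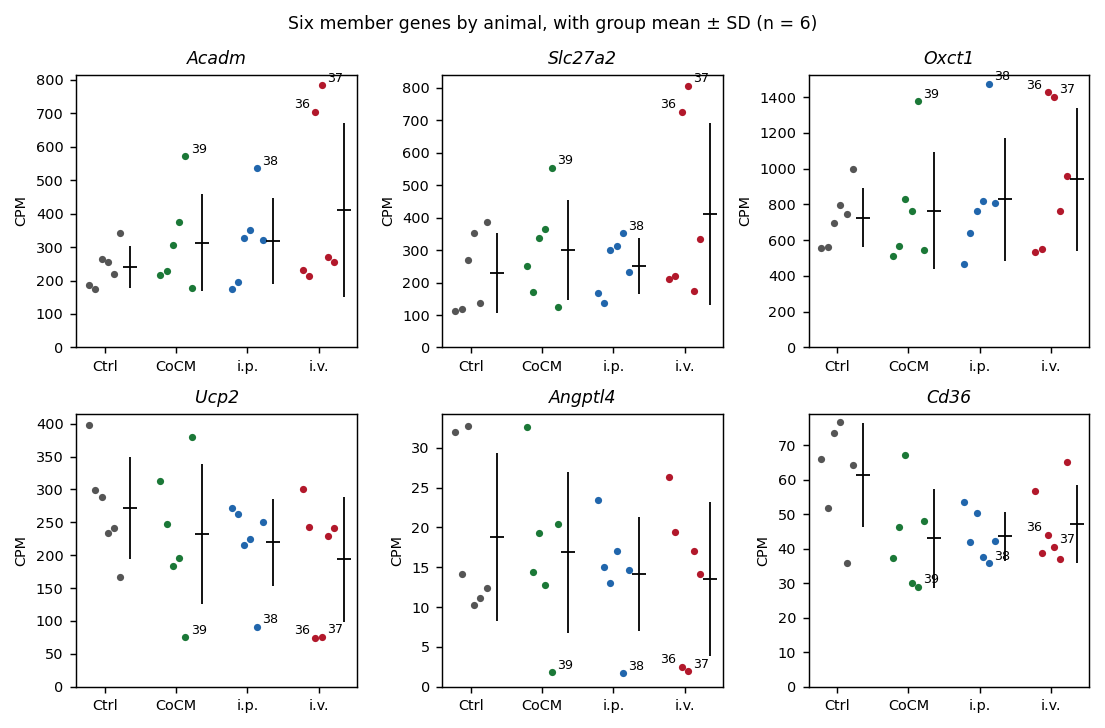
CPM of Acadm, Slc27a2, Oxct1, Ucp2, Angptl4 and Cd36, with a dot per animal and the mean ± SD of each group (n = 6) beside it; the numbers mark CoCM animal 39, i.p. ABCB5+ animal 38 and i.v. ABCB5+ animals 36 and 37. These animals are at the top for Acadm and Oxct1 and at the bottom for Ucp2 and Angptl4, while for Cd36 animals 39 and 38 are the lowest of their groups and animals 36 and 37 are not.

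The comparison of CoCM with Ctrl asked whether the supernatant alone was followed by a change in the module. No member passed the edgeR quasi-likelihood test after Benjamini-Hochberg adjustment (0 of 35), where 0.00783% of all genes tested, a single gene, passed. At an unadjusted p under 0.05 there were 2 members, Acot2 higher and Cd36 lower, where 11.9% of all genes had such a p. DESeq2 and limma voom with sample quality weights called 81 and 183 of all genes, and 0 members. The ranges of the groups overlapped for every member, while 1.38% of all genes did not overlap. The fold change was above 0 in 26 members and below 0 in 9, with a median log2 fold change of 0.19, where 51.4% of all genes were above 0.

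Cd36, the fatty acid translocase of the plasma membrane, ranged from 29.02 to 67.2 CPM with a median of 41.8 in CoCM, and from 35.8 to 76.6 CPM with a median of 65.1 in Ctrl. The log2 fold change was −0.51 ± 0.20 (SE, n = 6 and 6; adjusted p = 0.371 in edgeR, two-sided exact permutation p = 0.0628), and 5 of the 6 CoCM animals lay below the Ctrl mean. Plin2 ranged from 91.5 to 120 CPM in CoCM and from 109 to 135.5 CPM in Ctrl. Its log2 fold change was −0.18 ± 0.098 (adjusted p = 0.446 in edgeR), with all 6 CoCM animals below the Ctrl mean. It was −0.15 ± 0.08 without the 4 libraries.

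On the higher side, Bdh1 ranged from 34.5 to 71.9 CPM in CoCM with a median of 48.6, and from 30.3 to 49.9 CPM in Ctrl with a median of 35.2. The log2 fold change was 0.45 ± 0.23 (adjusted p = 0.438 in edgeR, exact permutation p = 0.0411 unadjusted). Acot2, a mitochondrial thioesterase that releases free fatty acids from coenzyme A, ranged from 66.5 to 106 CPM in CoCM and from 58.5 to 86.0 CPM in Ctrl, with a log2 fold change of 0.29 ± 0.14 (adjusted p = 0.418 in edgeR). Its value is uncertain, because the near-identical neighbour Acot1 could share its reads. Groups overlapped for both genes, and without the 4 libraries the values were 0.30 ± 0.17 for Bdh1 and 0.22 ± 0.11 for Acot2.

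By role, all 3 members of the carnitine shuttle, all 4 acyl-CoA dehydrogenases, all 3 enzymes for unsaturated fatty acids, all 3 electron transfer genes and all 3 ketone body enzymes had a log2 fold change above 0, with group medians of 0.10, 0.21, 0.30, 0.27 and 0.29. These medians were −0.03, 0.07, 0.14, 0.08 and 0.01 without the 4 libraries. Of the 5 genes for hydration, the second oxidation and thiolysis, 4 were above and 1 below 0. Both regulators were below 0, with a median of −0.31, and the 5 genes for lipid uptake, binding and storage had a median of −0.15. The medians of the regulators and the uptake genes were −0.67 and 0.07 without the 4 libraries. None of these genes passed the test. Without the 4 libraries, 19 members were above and 16 below 0 with a median of 0.01, where 49.3% of all genes were above 0, and leaving out CoCM animal 39 alone gave a median of 0.02. Leaving out Ctrl animal 1 or 12 gave medians of 0.11, and leaving out CoCM animal 35 gave 0 members with an unadjusted p under 0.05.

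Ppara ranged from 1.37 to 4.78 CPM with a median of 2.13 in CoCM, and from 1.19 to 5.94 CPM with a median of 3.76 in Ctrl. Ppargc1a ranged from 8.81 to 59.7 CPM with a median of 20.5 in CoCM, and from 14.8 to 45.6 CPM with a median of 24.6 in Ctrl. The ranges of both regulators overlapped over most of their length.

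For i.p. ABCB5+ against Ctrl, which asked the same of cells placed in the peritoneum, 0 of 35 members and 0% of all genes passed in edgeR. DESeq2 and limma voom with sample quality weights called 0 of all genes as well. A single member, Cd36, had an unadjusted p under 0.05, where 1.77% of all genes had one. The fold change was above 0 in 27 members and below 0 in 8, with a median log2 fold change of 0.19, where 51% of all genes were above 0. Groups overlapped for every member, and 0.047% of all genes did not overlap.

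Cd36 ranged from 35.7 to 53.5 CPM in the i.p. ABCB5+ group with a median of 42.1, and all 6 animals lay below the Ctrl mean of 61.3 CPM. The log2 fold change was −0.49 ± 0.20 (adjusted p = 0.978 in edgeR, exact permutation p = 0.0390 unadjusted). Fabp4 ranged from 1.21 to 10.9 CPM with a median of 5.30, where Ctrl ranged from 4.62 to 50.1 CPM with a median of 10.2. Its log2 fold change was −1.63 ± 0.92 (adjusted p = 0.978 in edgeR), and all 6 animals lay below the Ctrl mean, which 2 Ctrl animals described below raised. It was −1.43 ± 0.86 without the 4 libraries and −0.96 without Ctrl animal 24.

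Bdh1 ranged from 33.7 to 70.3 CPM with a median of 52.3, with a log2 fold change of 0.46 ± 0.23 (adjusted p = 0.978 in edgeR, exact permutation p = 0.0346 unadjusted) and 5 of 6 animals above the Ctrl mean. With the 4 libraries left out it was 0.35 ± 0.17. Cpt1b ranged from 11.3 to 26.5 CPM, where Ctrl ranged from 8.47 to 16.6 CPM, with a log2 fold change of 0.41 ± 0.25 (adjusted p = 0.978 in edgeR). It was 0.20 without i.p. ABCB5+ animal 38, and 0.20 ± 0.18 without the 4 libraries. Cpt1b is the form of striated muscle, whose 5 markers summed to 2.90 to 13.3 TPM in the i.p. ABCB5+ and 5.66 to 12.6 TPM in the Ctrl group.

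All members of the carnitine shuttle, the acyl-CoA dehydrogenases, electron transfer and the ketone body enzymes had fold changes above 0 in this comparison, with medians of 0.23, 0.21, 0.26 and 0.41. Leaving out the 4 libraries gave 0.09, 0.09, 0.08 and 0.08. The 5 lipid uptake, binding and storage genes had a median of −0.40, and −0.17 without the 4 libraries. Without the 4 libraries, 25 members were above and 10 below 0 with a median of 0.04, where 50.1% of all genes were above 0. Leaving out i.p. ABCB5+ animal 38 alone gave a median of 0.03 and no member with an unadjusted p under 0.05, as did leaving out Ctrl animal 18 or 22 for the latter. Leaving out Ctrl animal 12 gave a median of 0.11.

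For i.v. ABCB5+ against Ctrl, again 0 of 35 members and 0% of all genes passed in edgeR, and DESeq2 and limma voom with sample quality weights called 1 and 0 of all genes and 0 members. There were 3 members with an unadjusted p under 0.05 (Acadm, Acads and Acot2), all higher, where 5.78% of all genes had such a p and 4.44% were higher with it. The fold change was above 0 in 28 members and below 0 in 7, with a median log2 fold change of 0.31, where 52.6% of all genes were above 0. Groups overlapped for every member, and 0.11% of all genes did not overlap.

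Acadm ranged from 213 to 784 CPM with a median of 263.5 in the i.v. ABCB5+ group, and from 173.5 to 343 CPM with a median of 238 in Ctrl. The log2 fold change was 0.77 ± 0.35 (adjusted p = 0.673 in edgeR, exact permutation p = 0.184), and it rested on animals 36 and 37, which alone lay above the Ctrl range. Without the 4 libraries it was 0.01 ± 0.22. Acads ranged from 66.9 to 181 CPM with a median of 76.5 and was 0.58 ± 0.23 higher than Ctrl on the log2 scale (adjusted p = 0.673 in edgeR), and 0.07 ± 0.13 without those libraries. Leaving out animal 37 alone gave 0.47 for Acadm and 0.34 for Acads.

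Slc27a2 ranged from 174 to 806 CPM with a median of 277, and from 113 to 385 CPM with a median of 203 in Ctrl. Its log2 fold change was 0.84 ± 0.43 (adjusted p = 0.673 in edgeR) with 3 of 6 animals above the Ctrl mean, and 0.03 ± 0.37 without the 4 libraries. Acot2 ranged from 72.8 to 124 CPM, at a log2 fold change of 0.31 ± 0.14 (adjusted p = 0.673 in edgeR) and 0.07 ± 0.11 without them. These genes had their 2 highest values in animals 36 and 37, and leaving out animal 37 alone gave 0.53 for Slc27a2 and 0.19 for Acot2.

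On the lower side, Ucp2 ranged from 74.3 to 300.4 CPM with a median of 235 and Acsl5 from 77.3 to 140 CPM with a median of 125. The log2 fold changes were −0.49 ± 0.36 for Ucp2 (adjusted p = 0.691 in edgeR) and −0.28 ± 0.15 for Acsl5 (adjusted p = 0.673 in edgeR). Without the 4 libraries they were −0.10 ± 0.21 and −0.07 ± 0.09, and without animal 36 alone Ucp2 was at −0.32. Cd36 ranged from 36.9 to 65.0 CPM with a median of 42.3, at −0.38 ± 0.20 with all libraries (adjusted p = 0.673 in edgeR) and −0.31 ± 0.22 without the 4.

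The acyl-CoA dehydrogenases had the highest median of the roles with 3 or more members in this comparison, 0.49, followed by 0.49 for the enzymes of unsaturated fatty acids, 0.43 for electron transfer and 0.42 for the ketone body enzymes. Leaving out the 4 libraries gave 0.01, −0.01, −0.05 and −0.04. The direction of the whole module also changed without them: 12 members were above and 23 below 0 with a median of −0.04, where 48.3% of all genes were above 0. Leaving out animal 36 or animal 37 alone gave medians of 0.21 and 0.19 and no member with an unadjusted p under 0.05, while leaving out animal 28, 33, 42 or 43 gave 11, 11, 10 and 8 such members. Leaving out Ctrl animal 24 gave 7, and leaving out Ctrl animal 1 or 12 gave 1.

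**Figure D4:**
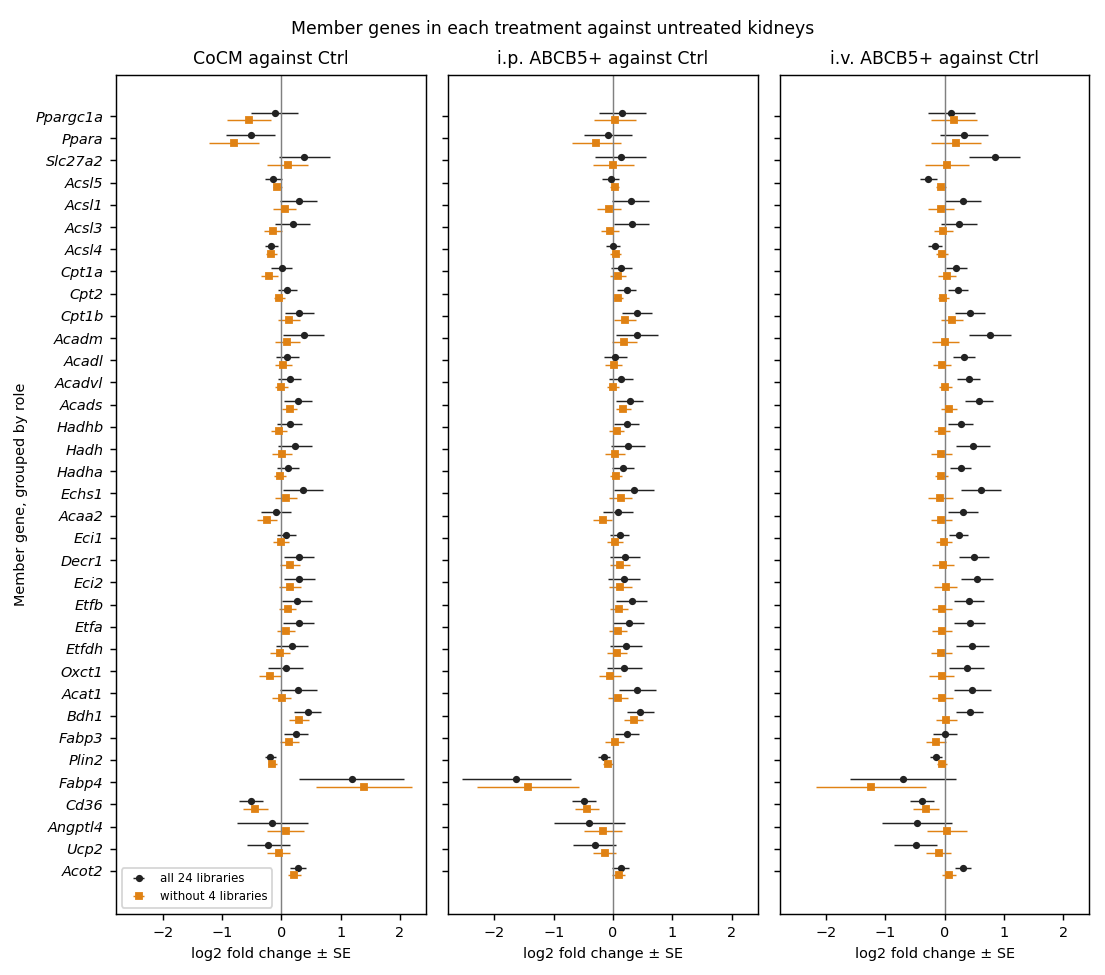
Log2 fold change (edgeR, bars ± SE) of each member, grouped by role, in each treatment (CoCM, and ABCB5+ cells given i.p. or i.v.) against Ctrl, with all 24 libraries (black) and without the 4 libraries (orange). The medians move from 0.19 to 0.01, from 0.19 to 0.04 and from 0.31 to −0.04, while Cd36 stays below 0 and Fabp4 keeps the widest bars. The 3 comparisons share their Ctrl animals.

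Cd36 therefore stood lower than Ctrl with and without the 4 libraries in each comparison: −0.44 ± 0.21 without them for CoCM, −0.44 ± 0.21 for i.p. ABCB5+ and −0.31 ± 0.22 for i.v. ABCB5+. The 3 values rest on the same 6 Ctrl animals, of which 1 lay at 35.8 CPM and the other 5 between 51.8 and 76.6 CPM. None of the 3 passed the adjusted test with either set of libraries.

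The route of the cells was compared directly, i.p. against i.v. ABCB5+. In edgeR 0 of 35 members and 0% of all genes passed, and 0 members had an unadjusted p under 0.05, where 2.14% of all genes had one. DESeq2 and limma voom with sample quality weights called 1 and 0 of all genes and 0 members, with 0 and 1 members at an unadjusted p under 0.05. The fold change was above 0, that is higher in i.p., in 10 members and below 0 in 25, with a median of −0.11, where 49.8% of all genes were above 0. Groups overlapped for every member, while 0.0626% of all genes did not overlap.

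The members with the smallest p were Slc27a2 (−0.72 ± 0.43) and Acadl (−0.29 ± 0.19) on the lower side, and Acsl5 (0.24 ± 0.15) and Acsl4 (0.16 ± 0.11) on the higher side. Each had an adjusted p of 0.9999 in edgeR. Slc27a2 ranged from 137 to 352 CPM in i.p. and from 174 to 806 CPM in i.v. animals, so that the upper end of the i.v. range was set by animals 36 and 37. Without the 4 libraries the median turned to 0.08, with 23 members above and 12 below 0. The 4 genes were then at −0.03 ± 0.39 (Slc27a2), 0.06 ± 0.16 (Acadl), 0.10 ± 0.09 (Acsl5) and 0.09 ± 0.10 (Acsl4). Leaving out i.v. animal 37 alone gave −0.41, −0.11, 0.15 and 0.08 in the same order.

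For CoCM against the mean of both ABCB5+ groups, 0 of 35 members and 0% of all genes passed in edgeR, and 1 member (Fabp4) had an unadjusted p under 0.05, where 7% of all genes had one. DESeq2 and limma voom with sample quality weights called 3 and 2 of all genes and 0 members. The median of the members was −0.10, with 7 above and 28 below 0, where 48.1% of all genes were above 0. With the 4 libraries left out, 17 members were above and 18 below 0, with a median of −0.005. For any difference among the 4 groups, 0 members and 0% of all genes passed in edgeR, and again Fabp4 was the only member with an unadjusted p under 0.05, where 4.71% of all genes had one.

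Fabp4 owed its place to a single animal. CoCM animal 34 had 208 CPM, and the other 5 CoCM animals ranged from 0.455 to 11.1 CPM. Against the mean of both ABCB5+ groups, its log2 fold change was 2.36 ± 0.74 (adjusted p = 0.688 in edgeR) and turned to −0.29 without that animal, while without the 4 libraries, which do not include it, it was 2.73 ± 0.74. Against Ctrl it was 1.19 ± 0.89 (adjusted p = 0.550 in edgeR, exact permutation p = 0.654) although 5 of 6 CoCM animals lay below the Ctrl mean, and it turned to −1.46 without animal 34. It was 1.82 without Ctrl animal 24 and 1.40 ± 0.81 without the 4 libraries.

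Of the fat cell markers, Plin1 and Retn moved with Fabp4. CoCM animal 34, at 723 TPM of Fabp4, had 52.9 TPM of Plin1, which coats the lipid droplets of fat cells, 56.7 TPM of the fat cell hormone Retn and 131 TPM of Adipoq. Ctrl animals 24 and 22 had 190 and 81.4 TPM of Fabp4 with 10.4 and 3.91 TPM of Plin1 and 10.3 and 4.95 TPM of Retn. The i.v. ABCB5+ animal 36 had 64.1 TPM of Fabp4 with 4.36 TPM of Plin1 and 4.65 TPM of Retn. The fat cell markers Adipoq, Lep and Cfd did not stand out upwards in this animal. Adipoq (26.8 TPM) and Lep (0.209 TPM) lay within the range of the 20 libraries outside the 4 (12.7 to 131 and 0.0284 to 1.80 TPM). Cfd (7.02 TPM) lay below theirs (7.88 to 182 TPM).

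Retn was listed at 0 in the other 20 animals, whose Plin1 ranged from 0 to 0.306 TPM. Cidec, another lipid droplet protein of fat cells, did not follow this order: its highest levels, 54.0 and 53.95 TPM, were in i.v. ABCB5+ animals 37 and 36, and CoCM animal 34 had 51.4 TPM. All 6 fat cell markers were in the files, and their sum ranged from 37.7 to 131 TPM in Ctrl, 41.8 to 475 in CoCM, 34.6 to 55.8 in i.p. ABCB5+ and 35.1 to 96.9 in i.v. ABCB5+ animals. The part of fat tissue in the Fabp4 values was not tested. At the other end, CoCM animal 39 and i.p. ABCB5+ animal 38 had 1.47 and 3.72 TPM of Fabp4 and the remaining animals at least 16.6 TPM. The value of CoCM animal 39 rested on 4 estimated counts.

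**Figure D5:**
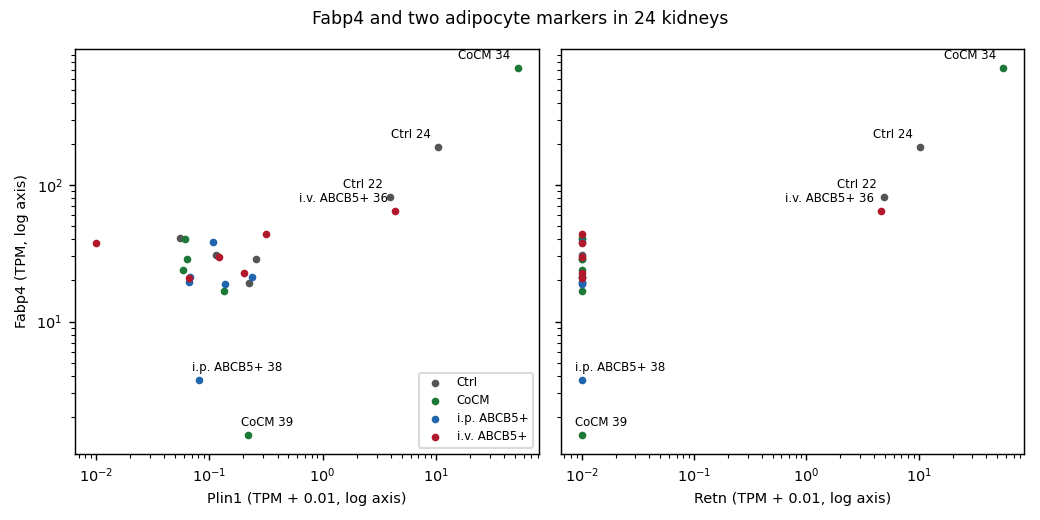
Fabp4 (TPM, log axis) against the fat cell markers Plin1 and Retn (TPM + 0.01, log axis), with a dot per animal coloured by group. CoCM animal 34, Ctrl animals 24 and 22 and i.v. ABCB5+ animal 36 stand apart at the upper right, and CoCM animal 39 and i.p. ABCB5+ animal 38 are the lowest for Fabp4.

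Around the module, 78 further genes of lipid metabolism were listed, of which 69 were tested. None of the 69 passed the edgeR test in any of the 5 comparisons. At an unadjusted p under 0.05 there were 4 in CoCM against Ctrl (Acly, Slc16a1, Nrip1 and Acaca, all lower), where 11.9% of all genes had such a p. There was 1 with cells i.p. (Acly, lower), against 1.77% of all genes, and 4 with cells i.v. (G0s2, Plin5, Mlycd and Pex11a, all higher), against 5.78%. Between the routes there were 4 (Fabp5, Plin5, Cyp4a1 and Pex11a, all lower in i.p. animals), against 2.14%, and in CoCM against both cell groups 2 (Slc16a1 and Vnn1, both lower), against 7%. Limma voom with sample quality weights called Slc16a1 in CoCM against Ctrl, as 1 of 183 calls among 12778 genes. Nrip1, Acaca, G0s2, Plin5, Mlycd, Fabp5, Cyp4a1 and Vnn1 are named here only because their p-values were small.

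Slc16a1, the monocarboxylate transporter that carries lactate and ketone bodies across the cell membrane, ranged from 7.74 to 21.3 CPM in CoCM with a median of 11.1, and from 16.3 to 32.8 CPM in Ctrl with a median of 23.03. All 6 CoCM animals lay below the Ctrl mean and 5 lay below the whole Ctrl range. The log2 fold change was −0.94 ± 0.28 (adjusted p = 0.255 in edgeR, exact permutation p = 0.00649 unadjusted), and without the 4 libraries it was −0.85 ± 0.26. With sample quality weights it was −1.12 with an adjusted p of 0.0288 in limma.

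Pex11a, a peroxisome division gene that PPARα can switch on, ranged from 32.4 to 73.8 CPM in the i.v. ABCB5+ group and from 21.4 to 40.5 CPM in Ctrl. The difference on the log2 scale was 0.59 ± 0.21, with all 6 animals above the Ctrl mean (adjusted p = 0.673 in edgeR, exact permutation p = 0.0498 unadjusted). It was 0.26 without the 4 libraries. Pdk4, a kinase that spares glucose, was at 0.03 ± 0.31 in the same comparison (adjusted p = 0.969 in edgeR). Slc25a20, the carnitine carrier of the inner mitochondrial membrane, was at 0.16 ± 0.14 with CoCM, 0.14 ± 0.14 with cells i.p. and 0.20 ± 0.14 with cells i.v., with adjusted p of 0.609, 0.978 and 0.683 in edgeR.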

How the data were processed

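Left kidney RNA of 24 rats was sequenced on a BGISEQ-500. For each animal the authors deposited estimated counts, not normalized, and TPM values, scaled to transcript length and library total, for 17334 Entrez genes. The submitters' processing notes name Trim Galore 0.6.4, kallisto 0.4.6 and the build rn6, and the study's methods name a human gene-model package and DESeq2. Symbols of 17179 genes and promoter sequences came from RefSeq (GRCr8). No coordinates of another build were used.

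Groups came from the sample labels. Counts were rounded, filtered by filterByExpr, TMM-scaled and tested over all 24 samples in edgeR 4.0.16 (R 4.3.3) by the quasi-likelihood F-test, with Benjamini-Hochberg adjustment over 12778 genes at 0.05. The SE of a log2 fold change is its size over the square root of F. Single genes were also compared by a two-sided exact permutation test of log2 CPM over 924 divisions (smallest p 0.00216). The p-values measure the spread between animals. The replicate name is the animal number. A floor of 3 counts is at most 0.322 CPM and covers counting error only, as reads carried no molecular identifiers.

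Alternatives were DESeq2 1.42.0, limma 3.58.1 (voom with sample quality weights, and log2(TPM + 1)), median-ratio size factors, other low-count filters, fits of only the groups compared, and leaving out single animals or the 4 libraries. On simulated counts for CoCM against Ctrl (12731 genes, 200 changed 4-fold), edgeR called 95% of the changed genes, and 5% of its calls were unchanged genes.

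The members, gene lists and the choice of the 4 libraries were made with earlier results of these data known. Members are named if they passed the adjusted threshold, had 1 of the 2 smallest p-values per direction in a comparison with Ctrl or of i.p. with i.v., had 1 of the 6 largest SDs, or stood in a list of 15 members written for their role, and the other genes of lipid metabolism by a like rule. Genes outside the rule are marked in the text. The further lists were other ketone body genes, other mitochondrial oxidation genes, other PPAR regulators and targets, other lipid uptake, storage and lipolysis genes, and fatty acid synthesis. Some genes that the rule names are not reported here.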

Additional observations from a re-analysis of the deposited data

Results flagged for a closer look

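In 19 members with values named by animal, each of the 4 groups was searched for an animal far from the rest (76 groups of 6, Dixon's criterion). There were 7 such values, from 4 animals. Chance alone gives about 1 in 20 groups, or 3.8 of these. Some of these members were named for their large SDs or small p-values, so setting 7 beside 3.8 is no test.

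CoCM animal 34 had 208.1 CPM of Fabp4, and the other CoCM animals had 0.455 to 11.1 CPM. Ctrl animal 24, which also carried fat cell markers, was the highest of its group for the ketone body enzyme Bdh1 (49.88 CPM against 30.3 to 37.3) and for the acyl-CoA synthetase Acsl4 (166.1 CPM against 124 to 137).

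The other 4 values came from libraries that stand apart on all genes. Oxct1 stood at 1376 CPM in CoCM animal 39 (others 512 to 831) and at 1475 CPM in i.p. ABCB5+ animal 38 (others 464 to 819). The latter animal was also the lowest of its group for Plin2 (87.82 CPM against 109 to 119) and Ucp2 (91.45 CPM against 215 to 272).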

How the results depend on the processing

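The count of members called was 0 of 35 in all comparisons under every alternative run and without each animal in turn, and the smallest adjusted p over the members was 0.371 in edgeR with all libraries, 0.0959 over the other alternatives and 0.225 when single animals were left out. With at least 10 counts required in every sample, 34 members were tested. Leaving out 1 animal at a time, the members' median log2 fold change ranged from 0.02 (without CoCM animal 39) to 0.26 for CoCM against Ctrl, from 0.03 (without i.p. animal 38) to 0.26 for i.p. ABCB5+, from 0.19 (without i.v. animal 37) to 0.39 for i.v. ABCB5+, from −0.30 (without i.p. animal 38) to −0.01 (without i.v. animal 37) for i.p. against i.v., and from −0.24 (without CoCM animal 39) to −0.02 (without i.v. animal 37) for CoCM against both cell groups. With sample quality weights these medians were 0.05, 0.08, −0.01, 0.10 and 0.0004, with 22, 28, 15, 25 and 18 members above 0. On log2(TPM + 1) CoCM against Ctrl had 19 members above and 16 below 0 with a median of 0.003, where 32.6% of all genes were above 0.

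Directions turned for Fabp4 in CoCM against Ctrl (−0.20 with quality weights, −0.62 on log2(TPM + 1), −1.46 without CoCM animal 34, up to 1.82 without Ctrl animal 24) and against both cell groups (−0.29 without CoCM animal 34, up to 2.60 without CoCM animal 39), and in i.p. against i.v. for Slc27a2 (0.16 with quality weights) and Acadl (0.10 with quality weights, 0.063 without the 4 libraries). The cause was not tested, except that leaving out animal 34 removes the highest Fabp4 value. Slc16a1 in CoCM against Ctrl passed the threshold with quality weights (−1.12). The other 214 values of single genes under the alternatives and 340 without single animals kept their direction and their side of the threshold. No paired analysis was possible because no animal number occurs in more than 1 group. With 6 animals a group and a common biological coefficient of variation of 0.299, an effect that misses the threshold is not shown to be absent. Depth limits the low values, of which the lowest estimated count was 4, for Fabp4 in CoCM animal 39. The lowest estimated count of Ppara was 17.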

Other observations

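Of 13 fatty acid synthesis genes, 9 had a log2 fold change below 0 and 4 above 0 in CoCM, with a median of −0.17, and −0.19 without the 4 libraries, where the median of all genes was 0.01 with all libraries. In each cell group 7 were below and 6 above 0, with medians of −0.05 with cells i.p. and −0.08 with cells i.v., and −0.09 and −0.03 without the 4 libraries. None passed the adjusted test. Acly, which makes cytosolic acetyl-CoA, ranged from 101 to 133 CPM in the i.p. ABCB5+ group and from 125 to 145 CPM in Ctrl, at a log2 fold change of −0.16 ± 0.07 (adjusted p = 0.978 in edgeR, exact permutation p = 0.0368 unadjusted), with all 6 animals below the Ctrl mean. Scd, the stearoyl-CoA desaturase, ranged from 1.39 to 5.28 CPM in i.v. ABCB5+ animals and from 3.77 to 24.7 CPM in Ctrl, at −1.20 ± 0.58 (adjusted p = 0.673 in edgeR). Without Ctrl animal 24, which had the 24.7 CPM, it was −0.54.

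Of 14 other mitochondrial oxidation genes tested, 13 stood above 0 against Ctrl in each of the 3 treatments, with medians of 0.18 for CoCM, 0.23 for cells i.p. and 0.36 for cells i.v., and 0.07, 0.07 and −0.01 without the 4 libraries. The comparisons share their Ctrl animals. The mitochondrial deacetylase Sirt3 ranged from 27.9 to 52.5 CPM in CoCM, from 24.9 to 54.6 CPM in i.p. ABCB5+ and from 23.6 to 30.3 CPM in Ctrl animals, at 0.38 ± 0.19 and 0.37 ± 0.19 (adjusted p = 0.426 and 0.978 in edgeR). Leaving out CoCM animal 39 gave 0.25 and leaving out i.p. ABCB5+ animal 38 gave 0.21. Of the other lists, genes for lipid uptake, storage and lipolysis had medians of 0.07, 0.07 and 0.11, PPAR regulators and targets 0.02, 0.05 and 0.22, and ketone body genes 0.11, 0.01 and 0.22 in the same order. Leaving out the 4 libraries gave medians of 0.08, 0.01 and 0.03, then −0.05, 0.04 and 0.06, then −0.07, 0.003 and −0.06. Lpl, the lipase that Angptl4 inhibits, was at −0.01 ± 0.18, −0.08 ± 0.18 and −0.17 ± 0.18 (adjusted p = 0.978, 0.978 and 0.730 in edgeR), and Pparg, the fat cell receptor, at 0.10 ± 0.47, −0.36 ± 0.47 and −0.31 ± 0.47 (adjusted p = 0.931, 0.978 and 0.809), with its highest level, 8.05 TPM, in CoCM animal 34.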
